A study of Mus musculus with 7 samples.

Results

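The Zbtb genes encode transcription factors that join a BTB domain to a set of C2H2 zinc fingers. They were read in the ventrolateral part of the ventromedial hypothalamic nucleus (VMHvl), a region whose estrogen-sensitive neurons act on female sexual behaviour, energy use and physical activity. Members were every row whose symbol is Zbtb followed by a number and at most one letter, which took 40 of the 48321 genes in the count tables, and 38 of the 18387 genes with enough counts to test. The symbol itself uses no measured value, but the family was chosen for description because of the estradiol response of Zbtb42 and Zbtb46 in these same libraries, and Zbtb16 was named with them. Every difference between treatments for a Zbtb gene is therefore given as a description, without a p-value of its own, and counts of members past a threshold support nothing.

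The BTB domain pairs one protein with another and is known to recruit corepressors such as NCoR and SMRT, or the ubiquitin ligase scaffold cullin 3, while the zinc fingers read DNA. Most members studied so far act mainly as repressors. They are best known from blood and immune cell lineages, from the reading of methylated DNA and from the timing of neuron production.

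All 7 mice were ovariectomized females, so their own ovarian estrogen was removed in both groups. Of these, 4 received 1 µg of estradiol benzoate (EB), an ester that releases estradiol, under the skin, and 3 received vehicle alone. The VMHvl was dissected by hand and frozen 4 h later, and each library came from 1 mouse and 15 ng of RNA. The animals were of a mixed background that descends from a floxed Esr1 line of 129/Sv origin. No Cre driver and no age is given in the sources used here. Libraries are called vehicle 1 to 3 and EB 1 to 4, numbers that only name them.

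Each library held 21037303 to 33302293 counts on genes. Levels are given as CPM, a gene's counts scaled to a fixed library size, after trimmed-mean (TMM) scaling. The summed CPM of 8 neuronal markers was 8099 to 8601 with vehicle and 8003 to 9105 with EB, and that of 13 VMHvl neuron markers was 1080 to 1515 with vehicle and 1093 to 1293 with EB. Of these 13, edgeR called 3 higher with EB, Pgr among them, and 1 lower, against 0.952% of all genes tested. Their sum thus mixes treatment differences with the tissue taken. The 1515 was vehicle 2, where Esr1 read 317 CPM, against 183 in vehicle 1 and 169 in vehicle 3. Some libraries stood apart in markers of other tissue. Vehicle 1 had the highest sum of 13 mural cell and fibroblast markers, 446 CPM against 216 to 359 in the other libraries, and EB 4 had the highest sum of 7 pituitary markers, 28.0 CPM against 2.65 to 14.4. Non-neuronal markers leaned lower with EB: negative log2 differences were seen for 13 of 13 mural cell and fibroblast markers, 8 of 8 astrocyte, 7 of 8 oligodendrocyte and 6 of 8 microglia markers, with medians of -0.22, -0.13, -0.07 and -0.13. The microglia sum was 158 to 168 CPM with vehicle and 140 to 157 CPM with EB, without overlap. edgeR called 0 of these 37 genes, where it called 0.952% of all genes tested. At an unadjusted p under 0.05 there was 1, P2ry12, lower, where 4.18% of all genes tested were lower. DESeq2 also called P2ry12 and limma-voom did not. The 13 endothelial markers, described with Zbtb46 below, leaned lower too, 11 of them negative with a median of -0.32. The part of these differences in the Zbtb values was not tested. In whole tissue, fewer cells of a type and less RNA per cell cannot be told apart.

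Zbtb42 and Zbtb46 are the genes for which the family was chosen. The bases before their RefSeq start sites are shown with the estrogen receptor half-site in capitals. The half-site is GGTCA, or TGACC where it lies on the other strand. Both windows come from the RefSeq table on GRCm38.p6, the assembly known as mm10. The Zbtb42 window is chr12:112678590-112678839 on the plus strand. The Zbtb46 window is chr2:181424389-181424638 on the minus strand, and it lies before a start inside the annotated gene rather than before the outermost one.
Zbtb42: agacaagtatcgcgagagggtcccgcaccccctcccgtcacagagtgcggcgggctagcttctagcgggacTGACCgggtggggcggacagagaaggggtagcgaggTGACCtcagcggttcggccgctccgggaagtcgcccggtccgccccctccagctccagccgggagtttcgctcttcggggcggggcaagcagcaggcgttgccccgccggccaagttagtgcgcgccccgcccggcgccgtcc
Zbtb46: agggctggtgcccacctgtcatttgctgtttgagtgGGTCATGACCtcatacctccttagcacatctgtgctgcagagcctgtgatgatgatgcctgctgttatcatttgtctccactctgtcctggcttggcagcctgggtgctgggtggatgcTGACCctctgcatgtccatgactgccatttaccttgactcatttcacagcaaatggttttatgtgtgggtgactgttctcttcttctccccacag

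In the Zbtb42 window the half-sites begin at -179 and -143, counted from the start site. In the Zbtb46 window they begin at -214, -209 and -95, and those at -214 and -209 face each other with no base between them. The full palindrome, GGTCANNNTGACC with 3 free bases in the middle, was in neither. Composition was read with the 50 bases after the start included. Zbtb42 was 74.7% G and C with 5 GC boxes, GGGCGG on either strand, and Zbtb46 was 50.7% G and C with 0 GC boxes. The Zbtb46 window lies before a start inside the gene and the Zbtb42 window before the outermost one. The 2 windows are thus unlike in position, and their contents do not compare the outermost starts of the 2 genes.

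Across the family, RefSeq held 48 such windows of 300 bases for 35 of the 40 members. Zbtb16 was among the 5 without one. On either strand, 0 of the 48 held the estrogen palindrome, against 23 of all 32851 windows (0.0700%). The half-site was in 16 of the 48 (33.3%), spread over 15 members, against 40.5% of all windows, so it was no more frequent before Zbtb genes than before others. The glucocorticoid palindrome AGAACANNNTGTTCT was in 0 of the 48 and in 3 of all windows (0.00913%). GC boxes were in 66.7% of the Zbtb windows against 35.7% of all, and the median G and C content was 64.3% against 52.7%. The core CATCTG, bound by Zbtb18 (also called RP58), was in 9 of the 48 windows (18.8%) against 17.2% of all, and 4 genes held it: Zbtb18 itself, Zbtb3, Zbtb38 and Zbtb46. Several windows of one gene can overlap, so windows are not independent, and a match describes letters and not binding.

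Zbtb42 encodes a repressor close to Zbtb18 and is otherwise known from skeletal muscle. It lies at chr12:112678828-112682747 on the plus strand (GRCm38), and its 1260 coding bases sit in 1 exon. The vehicle libraries held 4, 5 and 4 Zbtb42 counts, and the EB libraries held 539, 305, 310 and 520. In CPM these were 0.155, 0.158 and 0.176 with vehicle and 17.6, 9.40, 13.1 and 21.4 with EB. The transcript was close to undetected in every vehicle mouse and present in every EB mouse, with no overlap. The mean moved from 0.163 ± 0.0112 CPM (SD, n = 3) to 15.4 ± 5.24 CPM (SD, n = 4), a log2 difference of 6.52 ± 0.43 (SE) in edgeR's quasi-likelihood fit. The lowest EB library was 53.3 times the highest vehicle library. Each vehicle value rests on 4 or 5 counts, so the vehicle SD and this ratio are known only loosely. Among the EB mice themselves the highest level was 2.28 times the lowest, a coefficient of variation of 34.1%. Of all 18387 genes tested, this log2 difference ranked 1 by size. Zbtb42 was chosen for its response in these same libraries, so the rank supports nothing. The gene had enough counts to be tested only through the EB libraries. Leaving out both vehicle 1 and EB 4 gave a log2 difference of 6.29.

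Zbtb46 encodes zDC, best known as a marker of classical dendritic cells and also found in endothelium. It lies at chr2:181387762-181459426 on the minus strand (GRCm38) and has 4 coding exons. Its counts were 242, 185 and 241 with vehicle and 779, 604, 652 and 656 with EB. In CPM the vehicle libraries read 9.41, 5.86 and 10.6, and the EB libraries read 25.4, 18.6, 27.5 and 27.0. Unlike Zbtb42, it was clearly present without estradiol, and every EB library was above every vehicle library, the lowest EB value being 1.75 times the highest vehicle value. Means were 8.63 ± 2.47 CPM (SD, n = 3) and 24.6 ± 4.11 CPM (SD, n = 4), and the log2 difference was 1.52 ± 0.20 (SE). Without vehicle 1 and EB 4 it was 1.57.

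**Figure D1:**
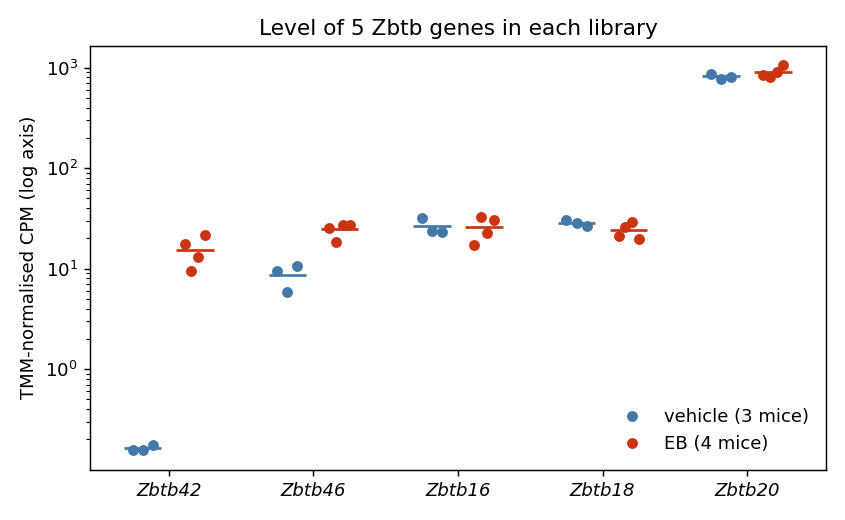
Level of 5 Zbtb genes in each library, in TMM-normalised CPM on a log axis, with 1 point per mouse and a line at the group mean (3 vehicle mice, 4 EB mice). Zbtb42 and Zbtb46 separate the treatments, while the points of Zbtb16, Zbtb18 and Zbtb20 overlap between them.

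Since Zbtb46 marks dendritic cells and endothelium, markers of both were read in the same libraries. The 12 dendritic cell and lymphocyte markers summed to 15.4 to 18.6 CPM with vehicle and 13.4 to 20.8 CPM with EB. Of them 6 could be tested, 4 with a positive and 2 with a negative log2 difference, and a median of 0.04. edgeR called 0 of the 6, with 0 at an unadjusted p under 0.05 and 0 called by DESeq2 or limma-voom. Of all genes tested edgeR called 0.952%, so 0 of 6 shows little. None of the 12 was at 0 in every library, but the defining ones were near it: the mean of Clec9a was 0.234 CPM with vehicle and 0.199 with EB, and that of Xcr1 was 0.0518 and 0.0154. The 13 endothelial markers summed to 120 to 167 CPM with vehicle and 100 to 130 with EB, and 11 of the 13 had a negative log2 difference, with a median of -0.32. edgeR called 0 of these 13. At an unadjusted p under 0.05, 5 were lower, led by Flt1, a VEGF receptor, and 1 was higher, Kdr, another VEGF receptor. Over all genes tested 4.18% were lower and 4.87% higher at that threshold. DESeq2 called 2 of the 13 lower and limma-voom 0. The marker sums of both cell types overlapped between treatments. The endothelial sums did so only through EB 4, at 130 CPM, above vehicle 2, at 120 CPM. The part of cell content in the Zbtb46 values was not tested.

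**Figure D2:**
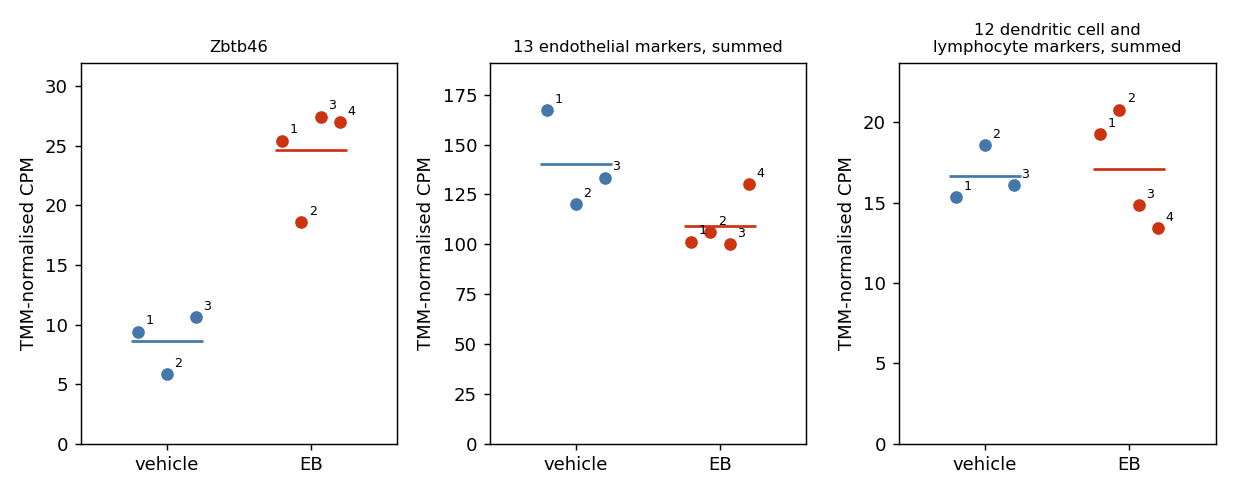
Zbtb46, the sum of 13 endothelial markers and the sum of 12 dendritic cell and lymphocyte markers in each library, in TMM-normalised CPM from 0; numbers name the mice and lines are group means. Zbtb46 runs from 18.6 to 27.5 CPM in the EB mice and from 5.86 to 10.6 CPM in the vehicle mice. Both marker sums overlap between treatments, the endothelial one only through EB 4.

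Zbtb16 encodes PLZF, a regulator of stem cells and innate-like T cells whose gene is known in other tissues as a target of steroid receptors. It lies at chr9:48654297-48836222 on the minus strand (GRCm38), with 6 coding exons. Its CPM values were 32.2, 23.8 and 23.3 with vehicle and 17.1, 32.4, 22.6 and 30.7 with EB. The groups overlapped fully, since EB mice held both the lowest and the highest value. Means were 26.4 ± 4.98 CPM (SD, n = 3) and 25.7 ± 7.16 CPM (SD, n = 4), with a log2 difference of -0.04 ± 0.21 (SE). The sign turned in 5 of the 16 other settings, over a range of -0.18 to 0.12.

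Over the whole family, 2 of the 38 tested members (5.26%) passed an adjusted p under 0.05, Zbtb42 and Zbtb46, both higher with EB. Among all genes tested 0.952% passed in either direction and 0.745% passed as higher. Since the family was chosen on this contrast, nothing is read from the excess. edgeR called 0 members lower, as did DESeq2 and limma-voom. At an unadjusted p under 0.05 there were 4 members higher and 4 lower, where 4.87% of all genes tested were higher and 4.18% lower. The groups did not overlap for 6 of the 38, EB above vehicle for 4 and below for 2, where 9.10% of all genes tested had groups that did not overlap.

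The other 36 members lay between -0.38 and 0.52 on the log2 scale, with a median of 0.07. Their standard errors ran from 0.0642 to 0.774 with a median of 0.142, and were under 0.25 for 30 of them. An absolute difference under 0.25 was seen for 27. The median absolute difference of all 38 tested members, 0.147, was close to the 0.152 of all genes tested. Positive differences outnumbered negative ones by 24 to 14, or 63.2% positive against 48.4% of all genes tested. With library totals in place of TMM scaling these shares were 71.1% and 57.1%, so both moved up together.

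**Figure D3:**
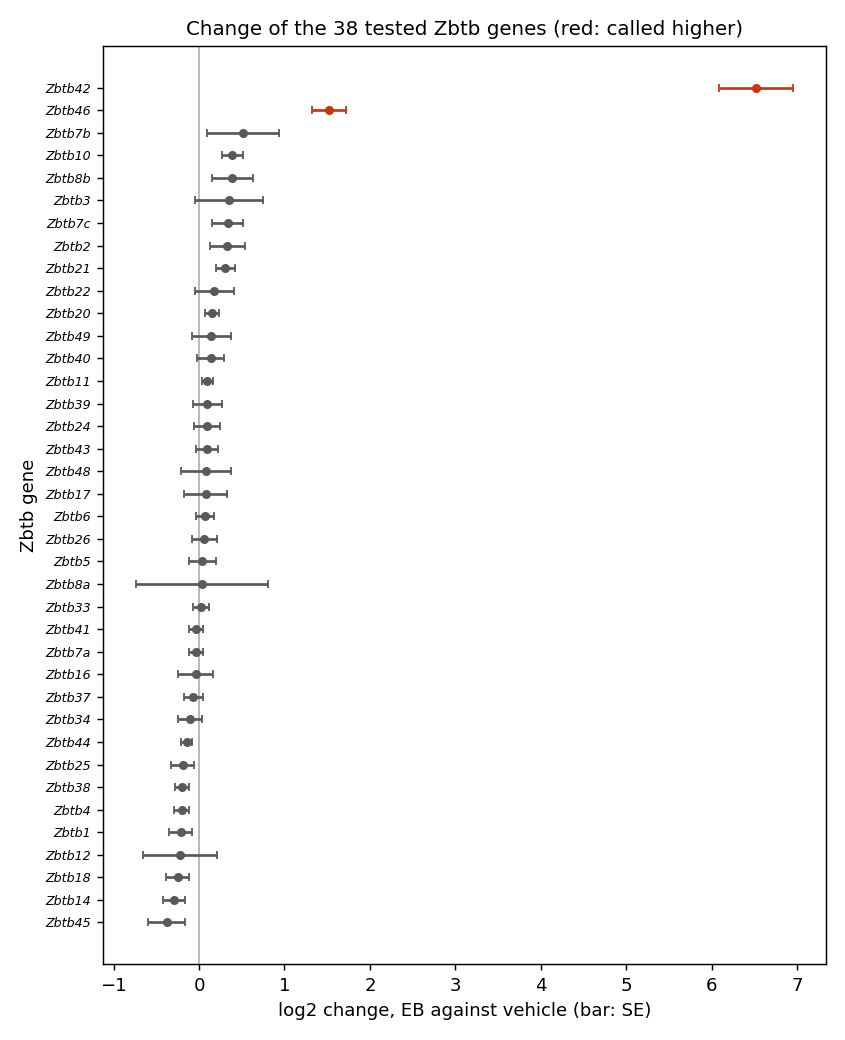
Difference between EB and vehicle for the 38 tested Zbtb genes, on a log2 scale with bars for the SE, ordered by size and red where called. Zbtb42 at 6.52 and Zbtb46 at 1.52 stand outside the range of -0.38 to 0.52 that holds the other 36.

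Among the 4 genes grouped as neural and muscle developmental repressors, Zbtb42 was the member called, and its close relative Zbtb18 was not. Zbtb18, which restrains neuronal differentiation genes, read 30.2, 28.7 and 26.7 CPM with vehicle and 21.2, 25.8, 29.2 and 19.9 CPM with EB. Of its EB values 3 were under every vehicle value and 1 was not, and the log2 difference was -0.25 ± 0.13 (SE). Zbtb20, a regulator of hippocampal and astrocyte development, was 817 ± 43.0 CPM (SD, n = 3) with vehicle and 906 ± 110 CPM (SD, n = 4) with EB. EB 4 was the highest Zbtb20 library at 1058 CPM, EB 2 at 805 CPM was below 2 of the vehicle mice, and the log2 difference was 0.15 ± 0.08 (SE), or 0.07 without EB 4. Zbtb18 stood at -0.13 without vehicle 1 and EB 4. Zbtb45, known from glial differentiation, had a log2 value of -0.38 ± 0.22 (SE), or -0.24 without vehicle 3, at 7.12 ± 1.15 CPM (SD, n = 3) and 5.40 ± 1.23 CPM (SD, n = 4), with overlapping groups.

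The readers of methylated DNA were Zbtb33 (Kaiso), Zbtb4 and Zbtb38, to which Zbtb24, the gene of the ICF2 immunodeficiency syndrome, was added. Of these 4, 2 were positive and 2 negative, with a median of -0.09. Zbtb4 read 55.9, 50.9 and 55.0 CPM with vehicle and 45.9, 50.7, 42.1 and 48.3 CPM with EB, a log2 difference of -0.20 ± 0.09 (SE). All EB values were below all vehicle values, by a margin of under 1 CPM between the nearest pair. Zbtb38 went from 112 ± 6.45 CPM (SD, n = 3) to 97.7 ± 8.15 CPM (SD, n = 4), also -0.20 on the log2 scale, but EB 1 at 109.9 CPM reached the vehicle range. Zbtb33 was at 54.1 ± 4.02 CPM (SD, n = 3) and 54.9 ± 4.81 CPM (SD, n = 4).

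The immune lineage group held Zbtb46, Zbtb16, Zbtb7b, Zbtb1, Zbtb25 and Zbtb32. Zbtb7b (ThPOK), which sets the helper fate of T cells, had the highest log2 value among members not called, 0.52 ± 0.42 (SE), but rested on 1.28 ± 0.119 CPM (SD, n = 3) and 1.88 ± 0.897 CPM (SD, n = 4). Zbtb1 and Zbtb25, both needed in lymphocytes, were at -0.21 ± 0.14 and -0.19 ± 0.14 (SE). Zbtb32 (ROG), a T cell repressor, was not tested because it held 7, 13 and 2 counts with vehicle and 6, 4, 10 and 0 with EB. Zbtb46 was thus the called member of this group, beside 4 tested members whose values lay within 0.52 of 0.

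Of the 3 telomere and genome stability factors all had a positive log2 value, with a median of 0.14. Zbtb10 read 30.3, 24.5 and 22.8 CPM with vehicle and 30.9, 34.4, 36.6 and 33.8 CPM with EB. Its EB mice were all above its vehicle mice, though EB 1 was barely above vehicle 1, and the log2 difference was 0.39 ± 0.12 (SE). The other two, Zbtb48 (TZAP), which trims telomeres, and Zbtb40, were at 0.08 ± 0.29 and 0.14 ± 0.16 (SE).

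The 6 regulators of growth and the cell cycle had 5 positive and 1 negative value, with a median of 0.11. Zbtb17 (Miz-1), the partner of Myc in repression, was scarce at 3.82 ± 0.773 CPM (SD, n = 3) and 4.02 ± 0.849 CPM (SD, n = 4). Zbtb7a (LRF), a regulator of globin genes and lineage choice, was at 72.1 ± 5.22 and 70.2 ± 3.46 CPM (SD, n = 3 and 4). Their log2 values, 0.08 ± 0.25 and -0.04 ± 0.08 (SE), each turned sign in 2 of the 16 other settings; without vehicle 2 they were -0.08 and 0.02.

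The remaining 17 genes have less settled roles. Zbtb21 read 19.8, 19.5 and 18.8 CPM with vehicle and 25.1, 24.3, 25.6 and 21.2 CPM with EB. All 4 EB mice were above the vehicle mice, which lay close together, and the log2 difference was 0.31 ± 0.11 (SE). Zbtb44 went the other way, with 172, 165 and 165 CPM under vehicle and 153, 143, 157 and 152 CPM under EB, and a log2 difference of -0.15 ± 0.06 (SE). Zbtb14 was at 20.8 ± 3.43 CPM (SD, n = 3) and 17.0 ± 1.02 CPM (SD, n = 4), -0.29 ± 0.13 (SE) with overlapping groups, or -0.15 without vehicle 2. Zbtb11, a protein needed for mitochondrial function and neutrophil development, was at 139 ± 1.61 CPM (SD, n = 3) and 149 ± 9.08 CPM (SD, n = 4). Zbtb9 was listed at 0 in all 7 libraries, and 84.4% of its exon bases lie under Ggnbp1 on the same strand in the GENCODE annotation, so reads there may have had no unique gene.

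Compared between genes by length, the vehicle level ran from 26.6 CPM per kilobase of exon for Zbtb20 down to 0 for Zbtb9, with a median of 1.82. Of the 40, 6 were above 10, and 27 were above 1. Zbtb20 alone made up 42.6% of the summed CPM of the family. It was followed by Zbtb11 at 18.7 ± 0.216 (SD, n = 3) and Zbtb44 at 17.9 ± 0.442 (SD, n = 3), then by Zbtb7a, Zbtb33 and Zbtb41 at 10.6 ± 0.767, 10.6 ± 0.785 and 10.3 ± 0.550 (SD, n = 3), which did not differ beyond their spread. With the longest transcript as the length, Zbtb11 came to 28.3, close to the 30.4 of Zbtb20.

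On this scale Zbtb42 went from 0.0468 to 4.40 CPM per kilobase and from rank 39 to rank 14 of the 40. Zbtb46 went from 1.01 to 2.89, and from rank 27 to rank 21. The highest-level members kept their order at the top: Zbtb20, Zbtb11 and Zbtb44 held ranks 1, 2 and 3 in both groups. With EB, the per-kilobase level of Zbtb42 lay between that of Zbtb10 at 4.58 and that of Zbtb18 at 3.91. With the longest transcript as the length, Zbtb42 went from rank 39 to rank 16 and Zbtb46 from rank 26 to rank 14. The order of Zbtb42 and Zbtb46 with EB thus depended on the length used.

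**Figure D4:**
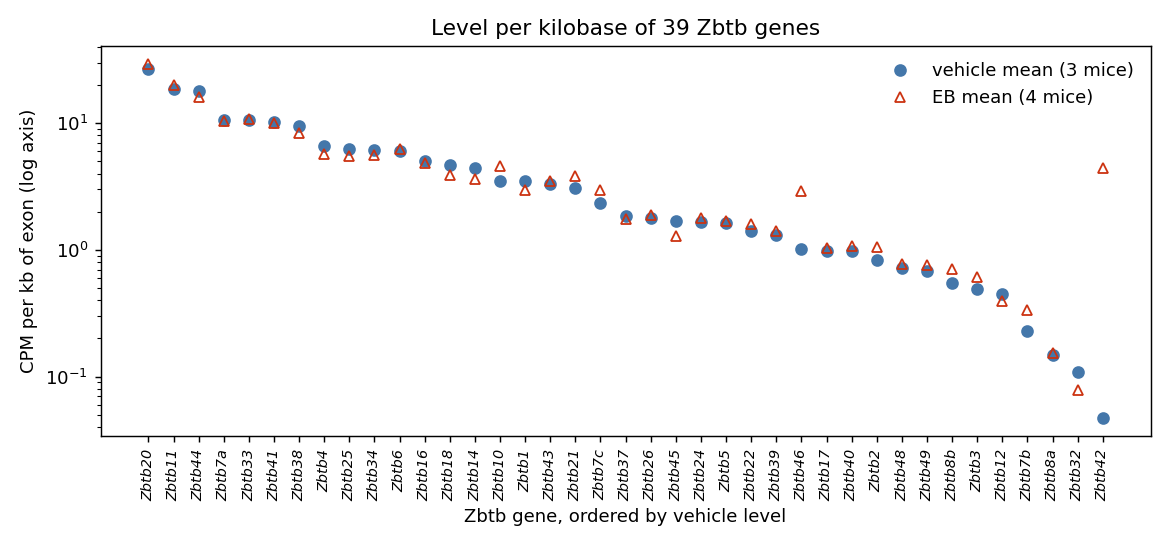
Mean level per kilobase of exon, in CPM per kb on a log axis, of the 39 Zbtb genes with any count, ordered by the vehicle mean (filled circles, 3 mice) with the EB mean (open triangles, 4 mice). The triangle of Zbtb42 stands at 4.40 over a circle at 0.0468, and that of Zbtb46 at 2.89 over 1.01.

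Spread between mice of one treatment was near that of other genes with vehicle and lower with EB. Members and other genes were not matched for level. The median coefficient of variation of the tested members was 14.3% with vehicle and 10.7% with EB, against 15.6% and 14.9% over all genes tested. Zbtb42 with EB, at 34.1%, and Zbtb46 with vehicle, at 28.6%, were above these medians. Gene structure was compact: 24 of the 40 had at most 2 coding exons, 11 had 1, and the coding length ran from 1260 bases, in Zbtb42, to 3774. The genes were spread over 15 chromosomes.

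Genes that start within 100 kb of Zbtb42 showed no comparable difference. There were 6 that encode protein, all tested, and edgeR called 0, with 0 at an unadjusted p under 0.05 and 0 by DESeq2 or limma-voom. Of all genes tested edgeR called 0.952%, so a count of 0 among 6 is common. The nearest, Akt1, a kinase of insulin signalling, starts 3.94 kb upstream and was at 28.4 ± 2.53 CPM (SD, n = 3) and 32.0 ± 1.10 CPM (SD, n = 4), a log2 difference of 0.17 ± 0.10 (SE). The others were Inf2 at -0.36, Siva1 at -0.16, Pld4 at 0.10, Cep170b at 0.13 and Adssl1 at 0.19 on the log2 scale.

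Around Zbtb46, 4 of 6 neighbours could be tested, and they lay between 0.06 and 0.12: Arfrp1, Zgpat, Tpd52l2 and Dnajc5. edgeR called 0 of them, with 1 (Dnajc5, 0.12 ± 0.05, SE) at an unadjusted p under 0.05 and 0 by DESeq2 or limma-voom. The shares over all genes tested were 0.952% called and 4.87% higher at the unadjusted threshold. Abhd16b and Lime1 were too scarce to test. The one protein-coding gene starting within 100 kb of Zbtb16 was Htr3a, a serotonin receptor subunit, at 0.307 ± 0.294 CPM (SD, n = 3) and 0.333 ± 0.182 CPM (SD, n = 4).

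**Figure D5:**
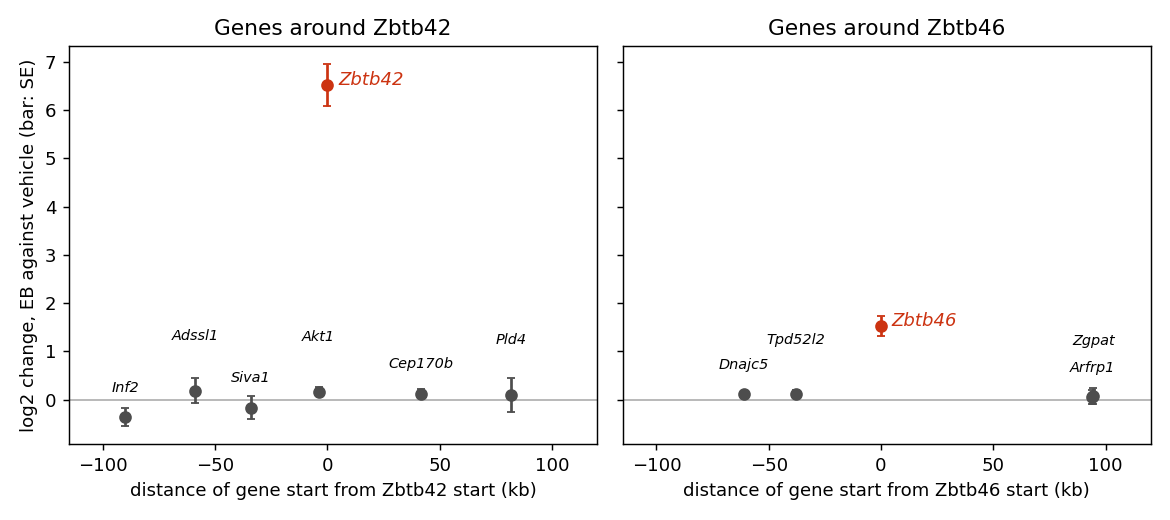
Difference between EB and vehicle, on a log2 scale with bars for the SE, of the tested protein-coding genes that start within 100 kb of Zbtb42 (left) and Zbtb46 (right), against the distance of their start in kb. The neighbours lie between -0.36 and 0.19, under Zbtb42 at 6.52 and Zbtb46 at 1.52.

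Gene lists around the family were read in the same fit: BTB zinc-finger genes that go by other names, BTB transcription factors without these fingers, and the corepressors and cullin 3 partners of BTB domains. Of their 39 tested genes edgeR called 0, where it called 0.952% of all genes tested, so 0 of 39 shows little. At an unadjusted p under 0.05 there were 4 higher and 1 lower, where 4.87% of all genes tested were higher and 4.18% lower. DESeq2 called 1 of the 39, lower (Tbl1xr1), and limma-voom 0.

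Of the 12 symbols listed for BTB zinc-finger genes under other names, Zfp161, Zfp238 and Zfp295 are older names of the members Zbtb14, Zbtb18 and Zbtb21. The other 9 were all in the tables, 7 of them positive, with a median log2 of 0.15. Bcl6, the repressor of germinal centre B cells and follicular helper T cells, read 42.4, 30.2 and 33.1 CPM with vehicle and 48.6, 48.7, 51.8 and 39.7 CPM with EB. EB 4 lay below vehicle 1, so the groups overlapped, and the log2 difference was 0.42 ± 0.13 (SE, adjusted p = 0.214 in edgeR). Of the 4 BTB factors without these fingers, Bach2, a repressor in lymphocytes, was at 0.34 ± 0.15 (SE).

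The 26 corepressors and cullin 3 partners split evenly, 13 positive and 13 negative, with a median of 0.00. Tbl1xr1, a subunit of the NCoR and SMRT complexes, read 144, 166 and 139 CPM with vehicle and 105, 122, 131 and 118 CPM with EB. Its groups did not overlap, and the log2 difference was -0.33 ± 0.09 (SE, adjusted p = 0.135 in edgeR). Gps2, a subunit of the same complexes, was at 6.44 ± 0.465 CPM (SD, n = 3) and 9.06 ± 1.13 CPM (SD, n = 4), 0.50 ± 0.17 (SE, adjusted p = 0.316 in edgeR). Bcorl1, a corepressor related to the BCL6 partner BCOR, was at 0.41 ± 0.16 (SE).

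For scale, edgeR called 4 of 11 tested textbook estrogen receptor targets higher (Pgr, Greb1, Nrip1 and Cckar) and 1 lower (Oxtr). Of all genes tested it called 0.745% higher and 0.952% in either direction. Pgr, the progesterone receptor, differed by 1.34 ± 0.09 and Greb1, a receptor cofactor, by 1.45 ± 0.21 on the log2 scale (SE), close to the 1.52 ± 0.20 of Zbtb46 and far under the 6.52 of Zbtb42. The Zbtb42 value starts from 4 or 5 counts per vehicle library. In mean CPM, Zbtb42 went from 0.163 with vehicle to 15.4 with EB, and Pgr from 82.2 to 207. Of 15 tested genes of the glucocorticoid response, 2 were called higher by edgeR, Fkbp5 and Dusp1, against 3 by DESeq2 and 1 by limma-voom. At an unadjusted p under 0.05, 4 were higher and 0 lower, against 4.87% and 4.18% of all genes tested. The median log2 of the 15 was -0.09.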

How the data were processed

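Per the labels, a Tecan/NuGEN Trio kit turned VMHvl RNA of 7 mice into libraries. The submitters' processing notes name HISAT2, HTSeq and DESeq2 and the build mm10; for versions, annotation and strand setting the sources name nothing. The deposited values are whole-number counts per gene symbol, 1 table per mouse. Total counts and TMM factors (0.859 to 1.09) set the scaling between libraries. Replicate libraries differed by more than sampling noise (chi-square per degree of freedom 17.0 to 166), so each counted once.

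Genes were kept by filterByExpr (minimum count 10) and tested with edgeR 4.0.16 in R 4.3.3, quasi-likelihood, robust, with Benjamini-Hochberg adjustment over all 18387 genes and a threshold of 0.05. The newer quasi-likelihood dispersion was adopted after both counts of calls had been seen. The SE is the absolute log2 difference over the square root of F. The script was tested on simulated data. DESeq2 1.42.0, limma-voom (limma 3.58.1), other scalings and filters, and omission of each mouse were alternatives. Levels per kilobase used GENCODE M21 exons.

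Members and lists were chosen with earlier results of these data known. Named genes were Zbtb42, Zbtb46 and Zbtb16, other called members, the 6 next by p, the 5 highest per kilobase, 6 with known roles, those not tested, called list genes or the 3 with the smallest p, and neighbours within 100 kb. Zbtb7b, Zbtb1, Zbtb25, Zbtb40 and Zbtb48, and the marker, neighbour and target genes described beyond these, were chosen after their values were seen.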

Additional observations from a re-analysis of the deposited data

Results flagged for a closer look

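Zbtb38 was flagged because one EB mouse lay far from the other 3. EB 1 read 109.9 CPM, and its gap to the nearest of the others was 0.930 of the group's whole range, above Dixon's critical value at the 95% level. The EB groups of 16 named Zbtb genes were looked at in this way, and chance flags about 1 in 20 groups (5%). The cause was not tested.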

How the results depend on the processing

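The call of 2 Zbtb genes, Zbtb42 and Zbtb46, held in 16 of 16 refits. Among them were omission of each mouse in turn and of vehicle 1 and EB 4 together. A looser threshold of 0.1 on the main fit could not lose a call and is not counted. All refits used the libraries on which the family was chosen, so they describe processing and are no independent support. The log2 difference ranged from 6.29 to 6.70 for Zbtb42 and from 1.30 to 1.70 for Zbtb46 over 16 refits, and none of the other 14 named members was called in any. The sign of Zbtb16 turned in 5 of 16, and that of Zbtb17, Zbtb33 and Zbtb7a in 2 of 16 each.

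The number of all genes called was 175 (137 higher, 38 lower). It was 351 (231 higher, 120 lower) with DESeq2 and 375 (240 higher, 135 lower) with no filter beyond any count, and 102 to 152 when 1 mouse was left out, 102 without vehicle 3 and 107 without EB 1. The legacy dispersion fit, the tool's default and run first, called 169; the fit reported here and the listing of this alternative were both settled after seeing the data. Of the partner and related genes, 0 were called; DESeq2 called 1 (Tbl1xr1), the fit with no filter 2 (Bcl6 and Tbl1xr1), and the fit without vehicle 1 and EB 4 called 1 (Bcl6). The cause was not tested. With the longest transcript as length, 8 levels per kilobase moved by more than their SD, among them Zbtb38 to 15.2 and Zbtb46 to 1.62. No paired analysis was possible because the numbers of the mice follow accession order and mark no pairs. At 4 to 5 counts per vehicle library, depth limits the baseline of Zbtb42.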
